A study of Rattus norvegicus with 2 samples.

Results

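The genes followed here are 10 genes known from alveolar type 1 cells: Ager, Hopx, Rtkn2, Clic5, Clic3, Emp2, Pdpn, Spock2, Gprc5a and Lmo7. They were chosen by name and with earlier results of these data known. Their probes were found through the platform annotation by current symbol or synonym, and 8 of the 10 genes, with 10 probes, were among the 15611 genes measured. Rtkn2 and Gprc5a have no probe among the named probes used here and were not analysed here. RNA of rat lung cells taken without culture or treatment was labelled with Cy3 on each of 2 Agilent arrays (lung, replicates 1 and 2). On both arrays it was hybridised against Cy5-labelled RNA of mix1, in which rat primary ear fibroblasts and bone marrow cells of rats, both cultured with fetal bovine serum, were pooled. The question was how far expression in lung cells departs from that in these cultured cells. The labels used here name no age, sex or strain, nor whether the lung samples came from separate animals, so p-values cover only the spread of these 2 samples, possibly a technical one.

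Alveolar type 1 cells are the thin, flat epithelial cells that cover most of the gas-exchange surface of the lung and lie against the capillaries. Type 2 cells, their cuboidal neighbours, secrete surfactant and can give rise to type 1 cells after injury. The genes of type 1 cells serve several tasks. Ager encodes RAGE, a cell surface receptor for S100 proteins and HMGB1, and Pdpn encodes podoplanin (T1-alpha), a mucin-like membrane protein. Emp2 encodes a tetraspan membrane protein, Clic3 and Clic5 encode chloride intracellular channel family proteins, and Spock2 encodes testican-2, a secreted proteoglycan. Hopx encodes a homeodomain protein that does not bind DNA by itself, and Lmo7 an adaptor at cell junctions and actin filaments.

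Every value is a deposited log2 ratio, read as lung over mix1, in which 1 unit is a 2-fold difference. That direction is likely and not stated outright, because the series speaks of lung expression compared with mix1, whereas Agilent's software itself writes Cy5 over Cy3. Of 5 lung genes outside the type 1 list that were used to read the sign, all 5 lay above 0, between 4.91 for Scgb1a1 and 7.02 for Sftpc. With the sign turned, every direction below would be the opposite. The arrays correlated with Pearson's r = 0.975 across all 40012 probes, which are not independent replicates. Dyes were in the same orientation on both arrays, so an effect of the dyes and a difference between the RNAs cannot be told apart. With mix1 as a single control RNA its own spread is not covered, and the number of arrays limits the precision of every value. A ratio from lung cells of several types cannot tell fewer cells of a type from less RNA per cell.

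All 8 measured type 1 genes were higher in lung than in mix1. Their median log2 ratio was 4.18, from 0.64 for Pdpn to 5.92 for Spock2, against a median of -0.22 over all 15611 genes. In limma's moderated test against 0, with Benjamini-Hochberg adjustment over all genes, the 8 genes had adjusted p from 0.00117 to 0.00334. The same test called 32.9% of all genes higher and 49.7% lower in lung, 82.7% together, so passing it alone says little about a gene. At least 2-fold higher in both arrays were 7 of the 8 genes, against 16.5% of all genes, and at least 16-fold higher in both arrays were 4 of the 8, against 2.14% of all genes. In limma's treat, which tests against a 2-fold difference, 7 of the 8 genes passed, against 13.7% of all genes called higher. Because the list was chosen with earlier results of these data known, these shares are a description and no independent test. Subtracting each array's median raised every ratio by 0.22 on average and left 8 genes called higher, with a median of 4.40. It changed the calls over all genes from 5142 higher and 7765 lower to 6312 higher and 5916 lower.

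**Figure D1:**
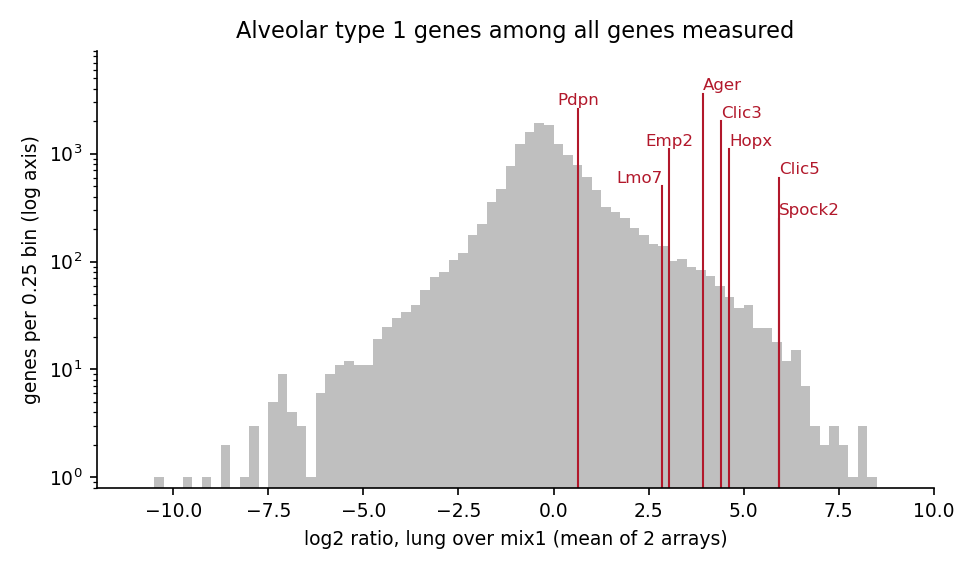
Number of genes (log axis) by mean log2 ratio of lung over mix1 in bins of 0.25, for 15611 genes, with a red line at the mean of each of the 8 type 1 genes. Pdpn, at 0.64, lies on the shoulder of the main peak, and the other 7 genes lie between 2.86 and 5.92 in the upper tail.

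The highest type 1 genes were Spock2 and Clic5. Spock2 had log2 ratios of 5.96 in replicate 1 and 5.88 in replicate 2. Both arrays were thus close together, with a mean of 5.92 ± 0.06 (SD, n = 2), or 60.7-fold higher in lung (limma adjusted p = 0.00117), rank 56 from the highest of all genes. Testican-2, its product, is a proteoglycan of the extracellular matrix. Clic5, whose product links membranes to actin through ezrin and radixin, averaged 5.92 ± 0.47 (SD, n = 2), or 60.6-fold higher (limma adjusted p = 0.00229), rank 57. Its 2 probes did not give the same ratio. The first lay at 6.65 in replicate 1 and 6.48 in replicate 2. The second lay at 5.86 in replicate 1 and 4.70 in replicate 2, and its 1.16 difference between arrays was larger than that of 98.8% of the named probes. Both probes were far above 0 in both arrays. The gap of 1.28 between the probe means was equalled or exceeded in 27.6% of the 3767 genes with several probes. The array values of Spock2 fell inside the range of Clic5's array means, 5.59 to 6.25, so the order of these genes is not resolved.

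Hopx, Clic3 and Ager followed, each with 1 probe. Hopx lay at 4.64 in replicate 1 and 4.60 in replicate 2, a mean of 4.62 ± 0.03 (SD, n = 2) or 24.6-fold higher in lung. Clic3 lay at 4.44 in replicate 1 and 4.39 in replicate 2, a mean of 4.42 ± 0.04 or 21.3-fold higher. Ager lay at 4.02 in replicate 1 and 3.85 in replicate 2, a mean of 3.94 ± 0.12 or 15.3-fold higher. The array values of these 3 genes did not overlap each other, so their order held in both arrays, although each ratio rests on a single probe. The genes ranked 214, 261 and 392 from the highest of all genes, in that order. RAGE, the product of Ager, is far more abundant in lung than in most other tissues and sits on the basal side of type 1 cells. Hopx is also known from heart muscle, where its product restrains genes driven by serum response factor.

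Emp2 and Lmo7 lay lower. Emp2 averaged 3.04 in replicate 1 and 3.05 in replicate 2, or 8.25-fold higher in lung (limma adjusted p = 0.00117). That agreement between arrays hides a large gap between its 2 probes. The first probe lay at 4.44 in replicate 1 and 4.42 in replicate 2, near Clic3, whereas the second lay at 1.65 and 1.67. The gap of 2.77, a 6.81-fold difference in ratio, was equalled or exceeded in 5.73% of the genes with several probes, whose median gap was 0.72. Each probe alone was higher in lung, 21.5-fold for the first and 3.16-fold for the second. Lmo7, which ties nectin junctions to actin, lay at 2.85 in replicate 1 and 2.88 in replicate 2, a mean of 2.86 ± 0.02 (SD, n = 2) or 7.27-fold higher. Depending on the probe, Emp2 stood above or below Lmo7, so their order is not settled.

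Pdpn had the smallest difference. It lay at 0.62 in replicate 1 and 0.66 in replicate 2, a mean of 0.64 ± 0.03 (SD, n = 2) or 1.56-fold higher in lung. In limma's test against 0 it passed (adjusted p = 0.00334), and limma's 95% interval of its log2 ratio ran from 0.52 to 0.76, below a 2-fold difference. Against a 2-fold difference it did not pass in limma's treat (adjusted p = 1). Of all genes, 23.4% had a higher ratio than Pdpn, whereas at most 5.31% had a higher ratio than any other of the 8. Podoplanin is a marker of rat type 1 cells and is also made by lymphatic endothelium, mesothelium and fibroblasts. Among the marker genes of cultured fibroblasts, all 6 of 6 were lower in lung, with a median of -7.16, from Prrx1 at -7.44 and Col1a1 at -7.25 to Thy1 at -3.92 and Pdgfrb at -2.22. Of the lymphatic endothelial markers other than Pdpn, 5 of 6 were higher, with Mmrn1 at 8.05, Lyve1 at 6.06 and Flt4 at 1.68, and the lineage factor Prox1 lay at -0.05 (limma adjusted p = 0.799). Of the 4 measured mesothelial markers, 3 were higher, with Gpm6a at 5.73, Wt1 at 2.39 and Msln at 0.99, and Lrrn4 lay at 0.03 (adjusted p = 0.834). Lrrn4 passed as higher at 0.26 with array medians subtracted. Beside these marker counts, 49.7% of all genes were called lower in lung and 32.9% higher. The part of fibroblasts, lymphatic endothelium and mesothelium in the Pdpn ratio was not tested.

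**Figure D2:**
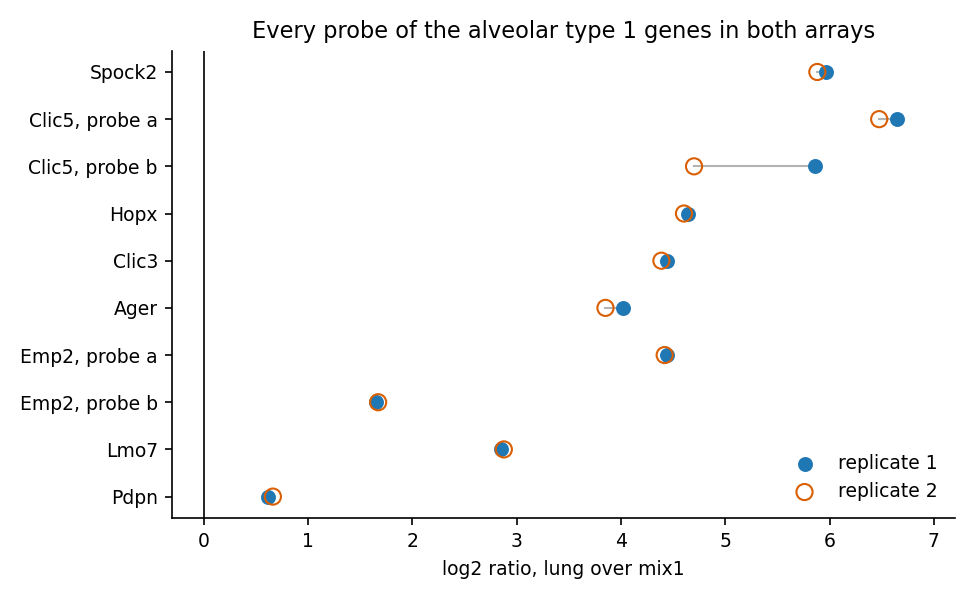
Log2 ratio of lung over mix1 for each of the 10 probes of the 8 type 1 genes, with replicate 1 as filled and replicate 2 as open circles joined by a grey line. All points lie right of 0, the arrays differ most for the second Clic5 probe (5.86 and 4.70), and the Emp2 probes lie far apart (near 4.43 and 1.66).

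The arrays differed little for most of these genes. The absolute difference between arrays was under 0.1 for 6 of the 8 genes, with a median of 0.05, against a median of 0.07 over all genes. Replicate 1 gave the higher ratio for 5 genes and replicate 2 for 3. The genes beyond 0.1 were Ager at 0.17 and Clic5 at 0.67.

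Promoters of the 8 genes were read from RefSeq for the build GRCr8, in a window of 250 bases before to 50 after each gene's start. They are shown because the genes share a direction, and the first 250 bases are printed for the genes with the highest ratios, Spock2 and Clic5, and the lowest, Pdpn. Capitals mark the GC box GGGCGG on either strand, the core letters bound by SP and KLF factors. Spock2 lies on the plus strand (chr20:28580012-28580261), Clic5 on the minus strand (chr9:24310965-24311214) and Pdpn on the minus strand (chr5:160918960-160919209).
Spock2: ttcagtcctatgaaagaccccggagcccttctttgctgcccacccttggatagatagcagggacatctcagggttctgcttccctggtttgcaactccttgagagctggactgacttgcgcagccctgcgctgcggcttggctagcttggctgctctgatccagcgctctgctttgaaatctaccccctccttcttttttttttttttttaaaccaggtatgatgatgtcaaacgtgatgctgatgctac
Clic5: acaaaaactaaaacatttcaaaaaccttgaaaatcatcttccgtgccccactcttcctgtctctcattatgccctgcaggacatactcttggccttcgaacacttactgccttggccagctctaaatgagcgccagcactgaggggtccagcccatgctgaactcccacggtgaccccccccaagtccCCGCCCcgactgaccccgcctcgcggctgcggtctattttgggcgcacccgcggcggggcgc
Pdpn: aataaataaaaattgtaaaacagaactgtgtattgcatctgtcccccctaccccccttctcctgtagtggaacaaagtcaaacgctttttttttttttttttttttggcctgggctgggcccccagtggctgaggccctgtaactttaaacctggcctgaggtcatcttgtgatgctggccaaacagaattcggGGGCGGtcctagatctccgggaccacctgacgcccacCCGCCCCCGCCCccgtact

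The GC box was found in 5 of the 8 promoters (Clic3, Clic5, Emp2, Lmo7 and Pdpn), against 33.1% of 33469 rat promoters. Pdpn, Emp2 and Lmo7 held 3 each, none overlapping another, and Clic3 and Clic5 held 1. The GC content of the 8 windows had a median of 58%, against 51.7% over all promoters, and a window rich in G and C holds this motif more often. The letters GGAATG, known from TEAD factors, were in 0 of the 8 windows and in 14.2% of all promoters, CACTTG, known from NKX2-1, in 0 and 14.1%, and TGTTTAC, known from forkhead factors, in 0 and 3.78%, each searched on both strands. These matches describe the windows and no more. The genes with a GC box had ratios from Pdpn at 0.64 to Clic5 at 5.92. Those without one were Ager at 3.94, Hopx at 4.62 and Spock2 at 5.92.

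Of 14 paralogs, 13 were measured, of which 5 were higher and 7 lower in lung and 1 did not pass, with a median log2 ratio of -0.43. That split is near the 32.9% higher and 49.7% lower among all genes. In the chloride intracellular channel family, Clic6 lay at 2.46 ± 0.01 (SD, n = 2) and Clic2 at 1.44 ± 0.01, both higher. Clic1 at -0.61 ± 0.02 and Clic4 at -0.73 ± 0.11 were lower, and these are the widely expressed members of the family. Within the same array, the ratio of Clic5 exceeded that of Clic1 by 6.88 in replicate 1 and 6.18 in replicate 2, and that of Clic3 exceeded it by 5.07 and 4.98. In the Emp2 family, Emp1 lay at -2.96 ± 0.04 and Emp3 at -2.23 ± 0.02, 7.78-fold and 4.68-fold lower in lung, while Pmp22, best known from myelin, lay at 0.96 ± 0.02. The ratio of Emp2 exceeded that of Emp1 by 6.04 in replicate 1 and 5.97 in replicate 2. That difference is between means over probes and its size depends on the probes. Those of Emp2 averaged 4.43 and 1.66, and those of Emp1 -2.31 and -3.61.

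Spock1 lay at -0.43 ± 0.02 (SD, n = 2) and was lower (limma adjusted p = 0.00543), a call that rested on 1 of its probes, since the probe nearer 0 alone gave -0.17 (adjusted p = 0.0589). Spock3 lay at 0.14 in replicate 1 and 1.21 in replicate 2 and did not pass (adjusted p = 0.196), although it passed with array medians subtracted (adjusted p = 0.00295). Limch1, a relative of Lmo7, lay at 4.60 ± 0.05, 24.3-fold higher in lung, and was above Lmo7 by 1.72 in replicate 1 and 1.76 in replicate 2. Rtkn, the relative of the unmeasured Rtkn2, was higher at 1.71 ± 0.01. Gprc5b and Gprc5c, relatives of the unmeasured orphan receptor gene Gprc5a, were lower at -1.11 and -2.35. Paralogs were compared gene by gene, and no test was made of the difference between these ratios. Probes of paralogs may also differ in how strongly they bind.

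**Figure D3:**
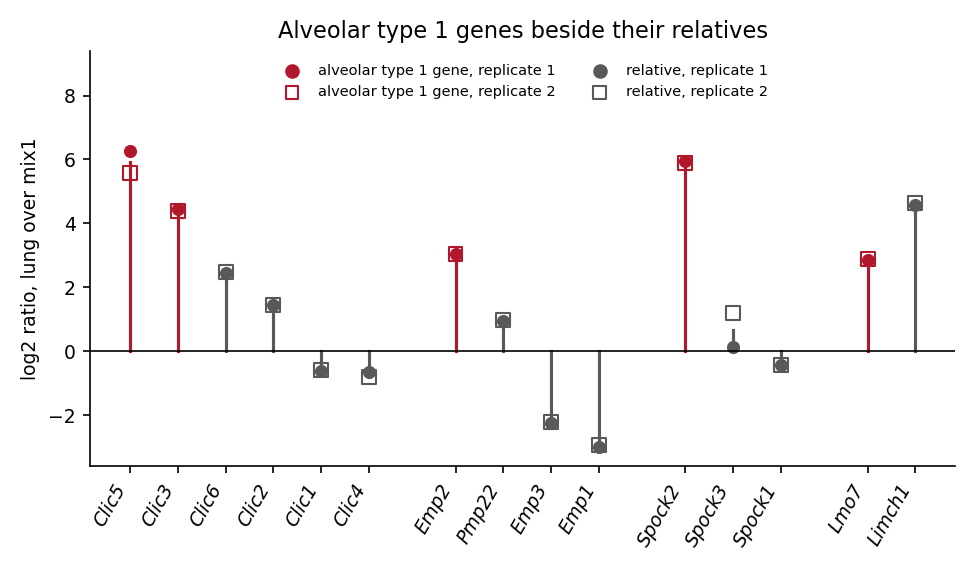
Log2 ratio of lung over mix1 for type 1 genes (red) and their relatives (grey) in the Clic, Emp, Spock and Lmo7 families, with replicate 1 as filled circles, replicate 2 as open squares and the line ending at their mean. Clic5, Clic3, Emp2 and Spock2 lie above their relatives, and Lmo7 at 2.86 lies below Limch1 at 4.60.

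Most other genes known from type 1 cells were also higher in lung. Of 20 such genes 18 were measured, of which 15 were at least 2-fold higher in both arrays, against 16.5% of all genes. In limma's test 16 of the 18 were higher in lung, against 32.9% of all genes, 1 was lower and 1 did not pass. The median of the 18 was 3.06. The highest were the kinase anchoring protein gene Akap5 at 6.33 ± 0.12 (SD, n = 2) and Scnn1g, a subunit of the epithelial sodium channel that clears fluid from the air space, at 5.04 ± 0.17. The lowest were Igfbp2, a binder of insulin-like growth factors, at -1.67 ± 0.04 and the laminin chain gene Lama3 at -0.31 ± 0.29 (limma adjusted p = 0.147). Other genes of the list that follow were chosen after their values were seen. The water channel gene Aqp5 lay at 4.84 ± 0.13 and the tight junction gene Cldn18 at 4.20 ± 0.14. The other sodium channel subunits Scnn1b and Scnn1a lay at 3.52 and 3.44, and the basement membrane collagen genes Col4a4 and Col4a3 at 3.71 ± 0.54 and 3.61 ± 0.09. Cav1, the main component of caveolae, lay at 0.58 in replicate 1 and 0.59 in replicate 2, each a mean of 3 probes. The Cav1 probe nearest 0 alone gave 0.22 and the median probe 0.24. The Cav1 relative Cav2 lay at 2.67 ± 0.02.

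Ligands of RAGE were far apart. S100a9 and S100a8, the calprotectin subunits of neutrophils, lay at 7.65 ± 0.04 (SD, n = 2) and 6.18 ± 0.03, both higher in lung, while S100a4 lay at -3.57 ± 0.05, 11.9-fold lower. S100b was lower at -0.23 ± 0.01, a call lost with array medians subtracted (-0.01, limma adjusted p = 0.946). Hmgb1 lay at 0.07 ± 0.03 and did not pass (adjusted p = 0.182), but passed as higher at 0.29 with array medians subtracted (adjusted p = 0.0113). It also passed as higher with its probe nearest 0 (0.18, adjusted p = 0.032) and with its median probe (0.18, adjusted p = 0.0329). The proteases known to shed RAGE were higher, Mmp9 at 2.62 ± 0.08 and Adam10 at 0.73 ± 0.01. Diaph1, a formin that binds the tail of RAGE, was lower at -0.26 ± 0.07, which was lost with array medians subtracted (-0.04, adjusted p = 0.652).

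Clec1b, the platelet receptor for podoplanin, had the highest ratio of all genes, 8.69 in replicate 1 and 8.08 in replicate 2, against 0.62 and 0.66 for Pdpn itself. Ezr, which encodes ezrin, a linker between podoplanin and actin that also binds CLIC5, was higher at 1.91 ± 0.04 (SD, n = 2). Cd44, a partner of podoplanin in the membrane, was lower at -0.36 ± 0.16 (limma adjusted p = 0.0447), lost with array medians subtracted (-0.14, adjusted p = 0.215). Lgals8, a galectin that binds podoplanin, lay at 0.02 and did not pass (adjusted p = 0.604), with 1 probe alone lower at -0.65, and it passed as higher at 0.24 with array medians subtracted (adjusted p = 0.0246). Podxl, a podocyte and endothelial sialomucin found with CLIC5 in the kidney, was higher at 5.88 ± 0.01, and Rdx was higher at 0.94 ± 0.02. For Emp2, the integrin chain genes Itgav at -2.25 ± 0.10 and Itgb3 at -0.32 ± 0.03 were lower, the second lost with array medians subtracted (-0.10, adjusted p = 0.33), and the focal adhesion kinase gene Ptk2 was higher at 0.57 ± 0.10.

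For Lmo7, the junction gene Afdn was higher at 1.98 ± 0.01 (SD, n = 2) and the nuclear envelope gene Emd lower at -0.50 ± 0.01. For Hopx, Hdac2 was lower at -0.61 ± 0.02, and Srf lay at -0.55 ± 0.30 and did not pass (limma adjusted p = 0.0592). Srf passed as lower with array medians subtracted (-0.33, adjusted p = 0.0134), with its probe nearest 0 (-0.32, adjusted p = 0.00997) and with its median probe (-0.32, adjusted p = 0.0103). Subtracting array medians moved Srf nearer 0, so that pass came without a larger difference. The membrane protease genes Mmp14 and Mmp16, whose inhibition by other testicans is countered by testican-2, were lower at -4.18 ± 0.02 and -0.61 ± 0.04. The Mmp16 call was lost with its probe nearest 0 (-0.08, adjusted p = 0.176). Of the genes whose signalling GPRC5A is known to dampen in mouse airway epithelium, Egfr was lower at -1.62 ± 0.05, and Stat3 was called higher at 0.30 with 1 of its probes lower at -0.36. Over all 47 measured partners and regulators, 21 were higher, 21 lower and 5 did not pass, with a median of 0.02, against 82.7% of all genes called in either direction. These counts are near that background.

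NKX2-1 acts together with YAP and TAZ, the effectors of the Hippo kinases, and their TEAD partners to keep type 1 cells in their state in the mouse. Of 6 measured regulators of type 1 cell fate, 3 were higher and 3 lower in lung, a split near that of all genes (32.9% higher and 49.7% lower). Gata6 at 3.30 ± 0.08 (SD, n = 2) and Klf5 at 1.91 ± 0.05 were the highest, and Wwtr1, which encodes TAZ, at -1.41 ± 0.06 and Tead2 at -1.14 ± 0.01 the lowest. The remaining 2 regulators, named after their values were seen, were Nkx2-1 at 0.75 ± 0.15, which was higher, and Tead1 at -1.05 ± 0.07, which was lower. Of the Hippo kinase genes and their scaffold Sav1, Stk4 at 1.71 ± 0.05 and Stk3 at 0.27 ± 0.03 were higher and Lats2 at -0.70 ± 0.16 was lower. Lats1 at 0.09 (limma adjusted p = 0.0942) and Sav1 at -0.10 (adjusted p = 0.0817) did not pass, and Lats1 passed as higher at 0.31 with array medians subtracted. Of 5 targets of YAP and TAZ, 4 were lower, against 49.7% of all genes. These included Ccn2 at -3.33 ± 0.03, Ccn1 at -2.54 ± 0.02 and Amotl2 at -1.17 ± 0.04, whereas Ankrd1 was higher at 2.44 ± 0.02.

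The other epithelial cells of the lung had ratios in the same range. Beside the counts that follow, 32.9% of all genes were called higher in lung. The 12 type 2 markers were all higher, with a median of 5.64, from Lamp3 at 7.11 and Sftpc at 7.02 to Abca3 at 1.45 and Etv5 at 0.56, though 1 probe of Abca3 alone was lower at -0.44 and the Etv5 call was lost with its probe nearest 0 (0.08, limma adjusted p = 0.119). The 7 airway secretory markers were all higher, with a median of 5.58, from Aldh1a1 at 8.15 and Cyp2f4 at 6.87 to Scgb3a2 at 4.42 and Scgb3a1 at 4.01. The 5 genes used to read the sign of the ratio are among these type 2 and airway secretory markers. Their direction is therefore no separate result, although they remain in the counts and medians. The 6 ciliated markers were all higher, with a median of 4.04, from Dynlrb2 at 5.79 and Foxj1 at 4.73 to Cfap126 at 3.45 and Tekt1 at 2.56. The median of 4.18 for the 8 type 1 genes was below the first 2 of these and close to the last, and the ranges overlapped in each case. Outside the epithelium, the 6 measured blood endothelial markers were also all higher (median 3.96), from Kdr at 6.04 and Cldn5 at 5.03 to Cdh5 at 2.45 ± 0.57 (SD, n = 2) and Tie1 at 2.27. Of the 5 T cell markers, 4 were higher (median 2.10), with Cd3g at 6.18 and Cd3e at 4.07 the highest and Lck at 1.34. The arrays were far apart for Cd3e, at 4.82 in replicate 1 and 3.33 in replicate 2. Foxp3 was lower at -0.40, a call lost with array medians subtracted (limma adjusted p = 0.0812). The share of each cell type in the ratio of any type 1 gene was not tested.

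**Figure D4:**
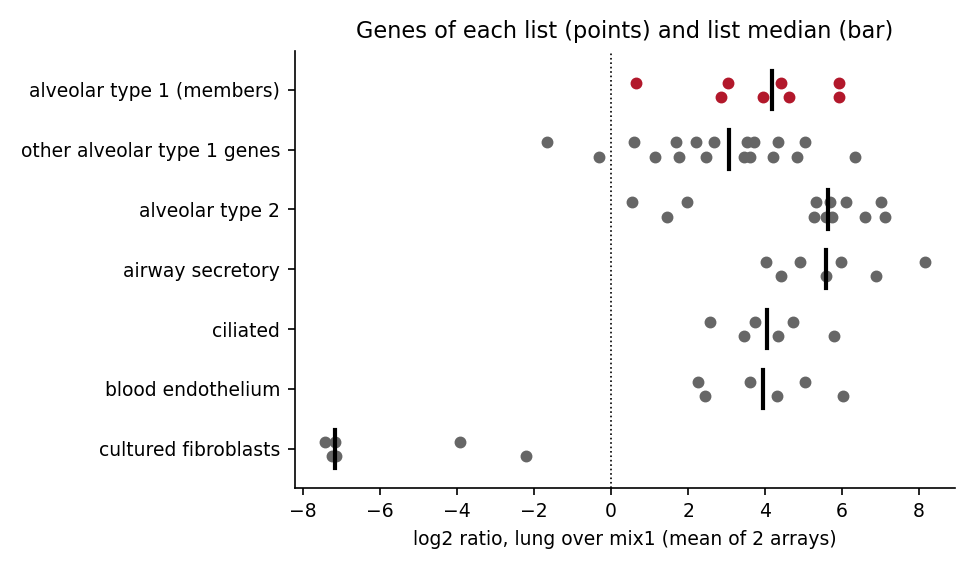
Mean log2 ratio of lung over mix1 for each gene (points, offset vertically for legibility) of 7 lists, with a black bar at each list's median. The 8 type 1 genes (red) have a median of 4.18, beside 5.64 for type 2 and 5.58 for airway secretory markers, and cultured fibroblast markers have a median of -7.16.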

How the data were processed

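Gene expression was measured in 2 lung samples on 2-colour arrays (lung in Cy3, mix1 in Cy5), per the labels. The authors deposited 1 log2 ratio per probe and array. Agilent Feature Extraction is the tool named in the submitters' processing notes. Its version, and how background and dyes were corrected, were not given in the sources used here. The log base was taken from the values, which run from -11.74 to 9.09 and would as base-10 logarithms exceed a 16-bit scanner's range. The probe medians were -0.16 and -0.21, so centring on the median probe was not done, and what the values are centred on is unknown. How background was handled sets the size of ratios with a dim channel.

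Of the 40012 probes, 20417 had 1 symbol in GEO's platform annotation, 0 had several, and 19595 are unnamed here. Symbols were updated by RefSeq accession (16987 probes, including all 10 of the type 1 genes), by matching current symbols (3035) or by synonyms (387) in RefSeq's table for GRCr8, and 8 were kept. Probes of a gene were averaged. No gene coordinates are taken from that table, because the arrays name no build. Promoter sequences are RefSeq's for GRCr8, and 8 of the 8 measured genes had one.

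The test was limma's (version 3.58.1, R 4.3.3): an intercept fitted with lmFit, then eBayes and Benjamini-Hochberg adjustment over 15611 genes, at a threshold of 0.05, with 1 residual and 1.28 prior degrees of freedom. The script was tested on simulated data. Values are mean ± SD of 2 arrays. The members and all lists were chosen with earlier results of these data known, and the GC box after the sequences were seen. Named genes are all measured members and paralogs, and from each other list the 2 highest, the 2 lowest and those that did not pass. Aqp5, Cldn18, Scnn1a, Scnn1b, Col4a3, Col4a4, Cav1, Cav2, Nkx2-1 and Tead1 fall outside that rule and were named after their values were seen. One short list of partners is counted among the partners and regulators, but its genes are not reported here. Alternatives were array medians subtracted, arrays scaled to the same median absolute value, robust eBayes, treat, an adjusted p under 0.01, the probe nearest 0, the median probe, the annotation's own symbols, and each array alone.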

Additional observations from a re-analysis of the deposited data

How the results depend on the processing

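The 8 type 1 genes stayed higher in lung under array medians subtracted, scaling, robust eBayes, an adjusted p under 0.01, the probe nearest 0, the median probe and the annotation's symbols. Under treat, Pdpn no longer passed. With array medians subtracted, the members' median went to 4.40, and it lay between 4.12 and 4.23 in single arrays. Subtracting array medians also lowered the members' limma adjusted p by orders of magnitude. That of Ager went from 0.0012 to 1.23e-10 and that of Pdpn from 0.00334 to 8.63e-06. A call can thus be gained under that setting with a ratio nearer 0, as for Srf (-0.55 to -0.33). The p-values of these fits are not directly comparable, and the reason for the drop was not tested. A single array has no test, so genes were counted there at 2-fold: 7 members were higher in either array. Under treat, which asks for more than 2-fold by its construction, 2143 of all genes were higher and 1881 lower, 3 paralogs were lower, and 12 partners and regulators were higher and 9 lower. In single arrays at 2-fold, 2743 to 2781 of all genes were higher and 2624 to 2787 lower, 4 paralogs were lower in each, and 12 partners and regulators were higher and 12 lower in each. With the probe nearest 0, the direction turned for Lgals8 (-0.65), Stat3 (-0.36) and Abca3 (-0.44), because their probes lie on both sides of 0. No paired analysis was possible because lung is the only group and every array holds both RNAs. A filter on dim probes was not run, since no signal over background was used here.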
